A study of Mus musculus with 6 samples.

Results

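The cyclins of the cell cycle are the regulatory subunits that switch on the cyclin-dependent kinases (CDKs) in turn as a cell grows, copies its DNA and divides. The genes described here are Ccnd1, Ccnd2, Ccnd3, Ccne1, Ccne2, Ccna1, Ccna2, Ccnb1, Ccnb2 and Ccnf. They were chosen by name, as the cyclins of classes D, E, A and B that drive the cycle plus cyclin F, and their probe sets were found through the probe annotation of the array. Of these 10 genes 9 had a probe set, among 19937 genes tested in all, each cyclin with a single probe set. No probe set was named Ccnb1 in the annotation used here, so cyclin B1 was not analysed.

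The samples were lineage-negative (Lin-) hematopoietic progenitors of the C57BL6 strain that carried the Rosa26rtTA transactivator, a protein that doxycycline switches on and that then drives the tetracycline-responsive vector. All cells, in both groups, were grown in serum-free medium with interleukin 3 at 20 ng/ml and with Flt3 ligand, interleukin 11 and stem cell factor at 50 ng/ml each, received a lentiviral vector 24 h after isolation and doxycycline at 1 µg/ml another 24 h later, and were sorted for EGFP. In the EVI1 group the vector carried Evi1 together with EGFP, and in the EGFP group it carried EGFP alone, with 3 arrays in each group. RNA was taken 20 h after doxycycline according to the series' design and 24 h after it according to the treatment protocol, so the arrays read an early state of the cells. The labels give neither age nor sex of the mice and do not say whether the replicates came from separate animals, so the p-values measure only the spread between these arrays.

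Cyclins are made and destroyed in waves. D cyclins are induced by growth factors such as the cytokines in this medium and pair with Cdk4 and Cdk6 to release E2F factors from the retinoblastoma protein. E cyclins then pair with Cdk2 at the entry into S phase, A cyclins act through S phase and G2, and B cyclins pair with Cdk1 for mitosis. Cyclin F binds no CDK that it is known to activate and serves as the substrate-binding part of a ubiquitin ligase. Mice that lack all D cyclins are known to die before birth with too few blood progenitors.

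Values are log2 intensities made by RMA, so a difference of 1 is a 2-fold change. Array medians lay between 7.244 and 7.312. The 3 EGFP arrays correlated with each other less than the EVI1 arrays did, and EGFP replicate 2 had the lowest array weight (0.452, against 0.874 to 1.55 for the others; noisier arrays get less weight). Mecom, the gene that encodes EVI1, did not show a rise under the EVI1 label: it read 6.39, 7.53 and 6.86 with EGFP alone, against 6.29, 6.18 and 6.49 with EVI1 (log2 difference -0.60, limma adjusted p = 0.166). Both of its group means, 6.92 and 6.32, were in the dim range defined below, where a difference is uncertain in size. It was not possible to tell whether these probes detect RNA from the vector, and each direction given is therefore between arrays as labelled. Progenitor markers were bright on average in both groups, with a mean of 10.40 to 10.57 over 9 genes in the EGFP arrays and 9.49 to 9.66 in the EVI1 arrays. Mast cell and basophil markers (9.96 to 10.51) and neutrophil markers (9.79 to 10.80) were about as bright in the EGFP arrays. In the EVI1 arrays these lists averaged 8.45 to 8.69 and 8.90 to 9.91. Of 8 measured lymphoid markers 6 were dim in both groups. A gene was called dim where its group mean fell short of the 95th percentile of 1027 olfactory receptor genes, which blood cells are not known to use, at 6.95 for EGFP and 6.99 for EVI1.

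Upstream sequence is given as background. Genes of the late cell cycle are known for pairs of CCAAT boxes and for the cell cycle genes homology region (CHR). Genes of S phase entry are known for E2F sites. RefSeq promoter sequence (GRCm38.p6) matched 6 of the 10 genes in 7 windows. The 250 bases before the annotated start are printed for Ccnb2 and Ccnf, which fell and hold both CCAAT and CHR letters, for Ccne1, which fell and holds neither, and for the 2 starts of Ccnd3, the D cyclin that did not pass the test. Capitals mark every match on either strand to the CCAAT box, to the CHR, searched as TTTGAA with the variant form spelled TTCGAA, and to E2F sites. An E2F word was searched as TTCCCGC or with its middle letters changed, which gives the form TTCGCGC, the form spelled TTGCCGC, or lastly the form TTGGCGC. The windows lie at chr9:70421555-70421804 (Ccnb2, minus strand), chr17:24251410-24251659 (Ccnf, minus strand), chr7:38107491-38107740 (Ccne1, minus strand), chr17:47504801-47505050 and chr17:47593217-47593466 (Ccnd3, plus strand).
Ccnb2: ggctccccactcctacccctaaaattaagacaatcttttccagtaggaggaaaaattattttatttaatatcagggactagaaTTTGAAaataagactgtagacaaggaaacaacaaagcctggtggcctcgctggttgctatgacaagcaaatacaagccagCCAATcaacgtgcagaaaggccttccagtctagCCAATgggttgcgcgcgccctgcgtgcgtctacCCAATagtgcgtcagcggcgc
Ccnf: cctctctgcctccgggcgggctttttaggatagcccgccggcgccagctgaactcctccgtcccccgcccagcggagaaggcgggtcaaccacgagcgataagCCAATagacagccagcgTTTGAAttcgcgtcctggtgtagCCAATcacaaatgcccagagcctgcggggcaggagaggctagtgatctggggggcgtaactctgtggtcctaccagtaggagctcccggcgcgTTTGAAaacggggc
Ccne1: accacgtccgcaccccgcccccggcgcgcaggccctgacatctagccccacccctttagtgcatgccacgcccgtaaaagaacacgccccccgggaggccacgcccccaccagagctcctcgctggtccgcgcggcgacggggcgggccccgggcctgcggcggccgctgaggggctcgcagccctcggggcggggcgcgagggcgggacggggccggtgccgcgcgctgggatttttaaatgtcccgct
Ccnd3, upstream start: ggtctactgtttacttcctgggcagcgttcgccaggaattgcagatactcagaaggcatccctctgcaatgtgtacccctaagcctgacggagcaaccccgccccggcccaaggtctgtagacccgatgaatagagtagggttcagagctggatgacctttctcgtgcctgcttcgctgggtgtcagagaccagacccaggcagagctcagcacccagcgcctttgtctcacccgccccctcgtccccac
Ccnd3, downstream start: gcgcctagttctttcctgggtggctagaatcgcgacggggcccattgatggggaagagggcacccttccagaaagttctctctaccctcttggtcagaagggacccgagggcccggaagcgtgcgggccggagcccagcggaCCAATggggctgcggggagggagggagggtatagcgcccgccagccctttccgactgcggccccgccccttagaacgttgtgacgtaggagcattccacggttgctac

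The Ccnb2 window held 3 CCAAT boxes, beginning 87, 54 and 21 bases before the start, and a CHR word beginning 167 bases before it. A second TTTGAA of Ccnb2 began at base 5 after the start. Ccnf held 2 CCAAT boxes, beginning 147 and 107 bases before the start, and 2 CHR words, beginning 130 and 14 bases before it. Ccne1 and the upstream start of Ccnd3 held none of these words, and the downstream start of Ccnd3 held a single CCAAT box 108 bases before it. Over the 250 bases before and 50 after the start, 37.4% of all 32851 promoters in the table held CCAAT, 19.2% a CHR word, 7.52% both and 9.57% an E2F word. At least 2 matches were found in 11.7% of promoters for CCAAT and in 2.54% for the CHR. No E2F word was found in the 5 printed windows or in the 50 bases after them. The search took only the exact words named above, so the absence of a match does not show that E2F-like sequence is absent. A near form of TTCCCGC, such as the gtcccgc at the end of the Ccne1 window, was not counted. Of the windows not printed, that of Ccnb1 held 2 CCAAT boxes, beginning 99 and 67 bases before the start, and an E2F word. This E2F word, read on the opposite strand, began 102 bases before the start and shared letters with the CCAAT box at 99. The window of Ccna1, which did not pass the test, held a CCAAT box beginning 107 bases before the start. No CCAAT and CHR words overlapped each other. A match is only a match of letters, and none of these windows was assayed here. Whether these words relate to the differences between the groups was not tested.

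Most cyclins were lower in the arrays labelled EVI1. By limma (Benjamini-Hochberg adjusted p under 0.05 over all genes), 7 of the 9 measured cyclins fell, none rose and 2 did not pass, where 18.2% of all genes changed, 9.18% down and 9.06% up. With the replicate number as a block 7 fell and none rose again, where 21.9% of all genes changed. At an unadjusted p under 0.05 the count of rises was 1, Ccnd3, where 14.2% of all genes rose at that threshold. The falls of Ccne2, Ccnf, Ccne1 and Ccna2 exceeded 2-fold, as did those of 3.03% of all genes. The median log2 difference over all genes was 0.00599. All 3 EVI1 values lay under all 3 EGFP values for 7 cyclins and over them for 1, where 16.5% and 16.1% of all genes showed these patterns (32.6% in all). The count of falling cyclins was 4 without EVI1 replicate 1 and 4 without EVI1 replicate 3. In RNA pooled from many sorted cells, fewer cells in the phase that makes a cyclin and less of its RNA per cell cannot be told apart.

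**Figure D1:**
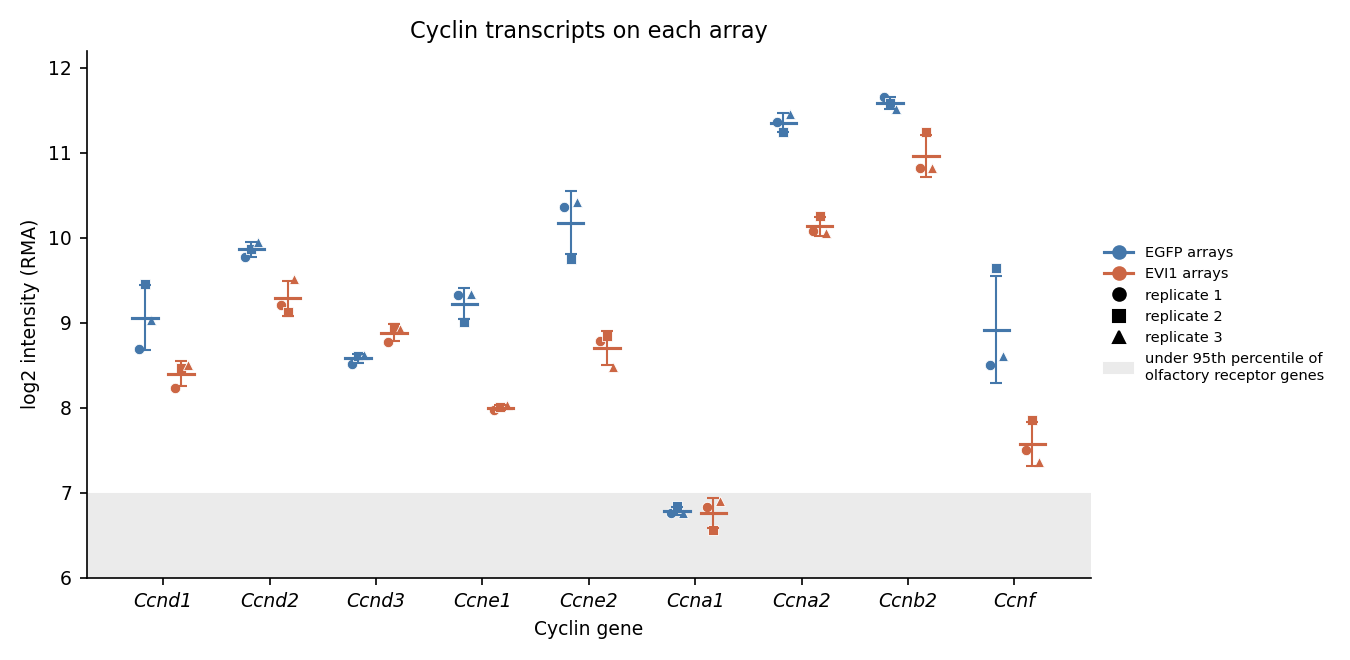
Log2 intensity (vertical axis) of the 9 measured cyclins on each array, with EGFP arrays in blue, EVI1 arrays in orange, 1 symbol shape per replicate number, bars for the group mean and whiskers for the SD of 3 arrays. The groups do not overlap for any cyclin except Ccna1, which lies in the grey band of dim levels, and Ccnd3 alone is higher in the EVI1 arrays.

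Of the D cyclins Ccnd1 and Ccnd2 fell and Ccnd3 did not pass the test. Ccnd1, the D cyclin best known as a target of growth factor signalling, read 8.69, 9.46 and 9.03 with EGFP alone, against 8.23, 8.47 and 8.50 with EVI1. Its highest EVI1 value lay close under its lowest EGFP value, and its EGFP arrays spread between replicate 1, the lowest, and replicate 2, the highest. The fall was 1.58-fold (log2 -0.66 ± 0.19 SE, n = 3 arrays per group, limma adjusted p = 0.0482). This call was narrow: without EGFP replicate 2 the difference was -0.46 (adjusted p = 0.0647), and with each array centred on its median the adjusted p was 0.0664. Among the 6 fits that leave out an array it passed in 1, that without EGFP replicate 1 (limma adjusted p = 0.0148).

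Ccnd2, a D cyclin induced by cytokines in blood cells, read 9.77, 9.87 and 9.95 with EGFP alone, against 9.21, 9.13 and 9.52 with EVI1. The EGFP values were tightly grouped and EVI1 replicate 3 was the nearest to them, with no overlap. Ccnd2 fell 1.49-fold (log2 -0.58 ± 0.13 SE, adjusted p = 0.0174 by limma). It did not pass without EGFP replicate 3 (adjusted p = 0.0675), EVI1 replicate 1 (0.0663) or EVI1 replicate 2 (0.0669).

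Ccnd3, the D cyclin linked to lymphoid and erythroid cell division, read 8.52, 8.61 and 8.62 with EGFP alone, against 8.77, 8.95 and 8.93 with EVI1. All EVI1 values were above all EGFP values, by a small margin. The log2 difference of 0.30 ± 0.10 (SE; 95% interval 0.06 to 0.54) did not pass over all genes (limma adjusted p = 0.0888), and it did not pass in any of the 14 alternatives, which gave 0.27 to 0.35. Within each array Ccnd2 minus Ccnd3 was 1.25 to 1.33 in the EGFP group and 0.18 to 0.60 in the EVI1 group, a change of -0.87. The exact two-sided permutation test of that within-array value gave p = 0.1, the smallest that 3 arrays against 3 allow, and p = 0.157 adjusted over the 36 pairs of measured cyclins. Most of these 36 pairs gave the same p-values.

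E cyclins, which open S phase with Cdk2, had the lowest median of the D, E, A and B classes. Ccne1 read 9.33, 9.01 and 9.34 with EGFP alone, against 7.97, 8.01 and 8.03 with EVI1. The EVI1 arrays were nearly equal (SD 0.03), and a wide gap parted them from the EGFP arrays. Ccne1 fell 2.34-fold (log2 -1.23 ± 0.12 SE, limma adjusted p = 0.000425), and 1.87% of all genes had a lower difference.

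Ccne2 read 10.36, 9.75 and 10.42 with EGFP alone, against 8.79, 8.85 and 8.48 with EVI1. EGFP replicate 2 was the lowest EGFP array for both E cyclins, while it was the highest for Ccnd1. Ccne2 fell 2.77-fold (log2 -1.47 ± 0.19 SE, limma adjusted p = 0.00151), and with an array left out the difference ran from -1.68 to -1.35. Both E cyclins passed in all 14 alternatives, with adjusted p up to 0.00433 for Ccne1 and 0.0119 for Ccne2.

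Of the A cyclins only Ccna2 was well above the dim level. Ccna2, the somatic cyclin A of S phase and G2, read 11.36, 11.24 and 11.46 with EGFP alone, against 10.08, 10.26 and 10.06 with EVI1. Both groups were tight, with an SD of 0.11 in each. It fell 2.33-fold (log2 -1.22 ± 0.11 SE, limma adjusted p = 0.000343) and passed in all 14 alternatives. Ccna2 and Ccne1 kept a like ratio: within an array Ccne1 minus Ccna2 was -2.23 to -2.02 in the EGFP and -2.25 to -2.02 in the EVI1 group (difference -0.01, exact permutation p = 0.9, 0.982 adjusted over the 36 pairs).

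Ccna1, the cyclin A best known from male germ cells, read 6.76, 6.84 and 6.76 with EGFP alone, against 6.83, 6.56 and 6.90 with EVI1. The groups overlapped and all 6 values were in the dim range. Its log2 difference was -0.02 (95% interval -0.30 to 0.25, limma adjusted p = 0.939), and at this level the array could hardly show a fall.

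Ccnb2, the measured mitotic B cyclin, read 11.66, 11.58 and 11.52 with EGFP alone, against 10.82, 11.25 and 10.82 with EVI1. EVI1 replicate 2 was closer to the EGFP arrays than the other two but did not reach them. Ccnb2 fell 1.54-fold (log2 -0.63 ± 0.14 SE, limma adjusted p = 0.0167), and it did not pass without EGFP replicate 1 (0.0522), EVI1 replicate 1 (0.0652) or EVI1 replicate 3 (0.0718). Within an array Ccna2 minus Ccnb2 was -0.33 to -0.06 in the EGFP and -0.99 to -0.74 in the EVI1 group, a change of -0.60 (exact permutation p = 0.1, 0.157 adjusted over the 36 pairs). Groups that do not overlap were found for most of the 36 pairs.

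Ccnf, whose protein directs Rrm2 and Cdc6 to destruction in G2, read 8.50, 9.64 and 8.61 with EGFP alone, against 7.50, 7.86 and 7.36 with EVI1. Replicate 2 was the highest array in each group, and the groups did not overlap. Ccnf fell 2.54-fold (log2 -1.34 ± 0.29 SE, limma adjusted p = 0.0138). Without EGFP replicate 2 the difference was -0.98 (adjusted p = 0.00369), and without EVI1 replicate 3 it did not pass (-1.24, adjusted p = 0.0708). Its upstream window, like that of Ccnb2, carries CCAAT and CHR letters, while Ccne1, which fell by about as much, carries neither in its window.

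**Figure D2:**
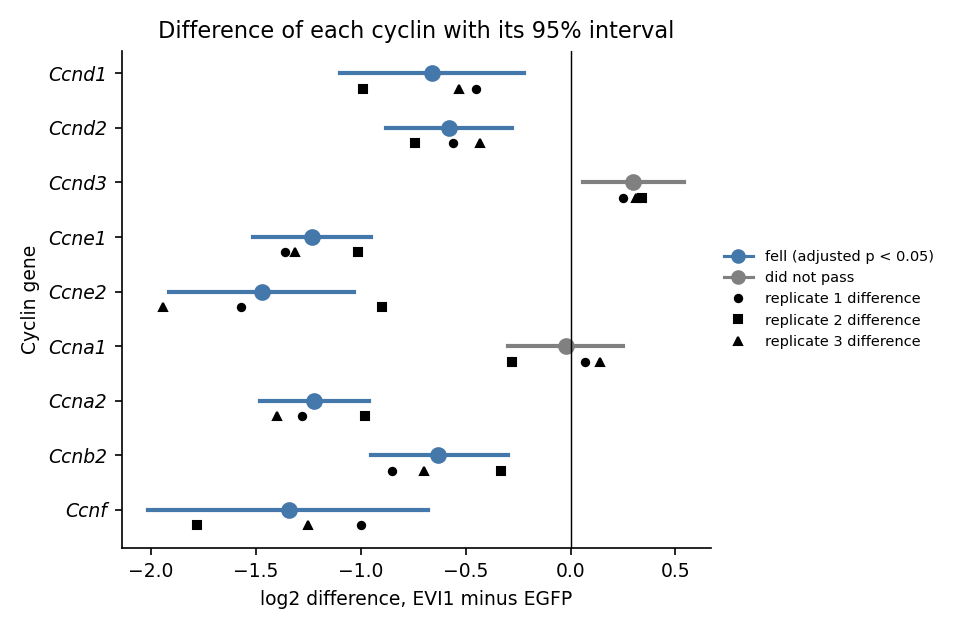
Log2 difference, EVI1 minus EGFP (horizontal axis), of each measured cyclin with its 95% interval from limma; small black symbols are the differences of same-numbered arrays. The intervals of Ccne1, Ccne2 and Ccna2 lie near or under -1, that of Ccnd3 runs from 0.06 to 0.54 and that of Ccna1 spans 0.

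Set side by side, the cyclins of G1 and S phase entry and those of S phase and mitosis had close medians where the dim Ccna1 was counted. Of the 5 D and E cyclins 4 fell, with a median log2 difference of -0.66 and a range from -1.47 to 0.30. Taken apart, the D cyclins had a median of -0.58 and the E cyclins of -1.35. Of the 3 measured A and B cyclins 2 fell, with a median of -0.63 and a range from -1.22 to -0.02, or a median of -0.92 over Ccna2 and Ccnb2 without the dim Ccna1. Averaged within each array, the D and E cyclins read 9.33, 9.34 and 9.47 with EGFP alone, against 8.60, 8.68 and 8.69 with EVI1. Ccna2 and Ccnb2 averaged 11.51, 11.41 and 11.49 with EGFP alone, against 10.45, 10.75 and 10.44 with EVI1. The spread inside the D and E group, between Ccne2 and Ccnd3, was larger than the gap between the class medians. These class values are descriptions with no test.

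The kinases that the cyclins activate were mostly lower too. Of 6 CDK and Cks genes 5 fell and none rose, where 9.18% of all genes fell and 9.06% rose. The median log2 difference of the list was -1.10. Cdk6, the partner of D cyclins in blood progenitors, read 11.40, 11.86 and 11.56 with EGFP alone, against 10.04, 9.80 and 9.84 with EVI1, a 3.28-fold fall (log2 -1.71 ± 0.14 SE, limma adjusted p = 0.000227). Cdk4, the other partner of D cyclins, read 10.88, 11.99 and 11.29 with EGFP alone, against 9.98, 10.62 and 10.53 with EVI1 (log2 -1.01 ± 0.28 SE, adjusted p = 0.0406). Its highest EGFP value was again that of replicate 2, as for Ccnd1, and the call was lost in 4 of the 6 fits that leave out an array and with each array centred on its median. Cdk1, the mitotic kinase, fell by 1.28 ± 0.18 (SE), and the Cks subunit Cks1b fell by 1.19 on the log2 scale. Its relative Cks2 differed by -0.48 (adjusted p = 0.0315) and passed in 2 of the 6 fits that leave out an array (adjusted p up to 0.107). Cdk2, the partner of the E and A cyclins, did not pass: it read 9.40, 9.56 and 9.32 with EGFP alone, against 9.63, 9.68 and 9.46 with EVI1 (log2 difference 0.16, 95% interval -0.10 to 0.43). Of the 6 genes Cdk2 was the one that did not fall, while both E cyclins and Ccna2 did. The number of falling CDK and Cks genes was 3 without EGFP replicate 3, EVI1 replicate 1 or EVI1 replicate 3.

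Some CDK inhibitors rose and the others did not pass. Of 6 measured inhibitors 2 rose and none fell, where 9.06% of all genes rose and 9.18% fell. Their median log2 difference was 0.38. The probe set of Cdkn1a names several genes and was not used. Cdkn1c (p57), an inhibitor linked to stem cell quiescence, read 7.79, 7.81 and 7.66 with EGFP alone, against 9.09, 9.08 and 9.03 with EVI1 (log2 difference 1.31 ± 0.10 SE, limma adjusted p = 0.000161). Cdkn1b (p27), which binds CDK complexes of D, E and A cyclins, rose by 1.12 ± 0.21 (SE). Cdkn2c and Cdkn2b, inhibitors of Cdk4 and Cdk6, differed by 0.57 and 0.19 and did not pass.

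Genes that set CDK phosphorylation split. Of 8 genes 3 fell and 1 rose, with a median of -0.24, where 9.18% of all genes fell and 9.06% rose. The phosphatases Cdc25a and Cdc25c, which remove the inhibitory phosphates from CDKs, fell by 1.10 ± 0.12 and 1.22 ± 0.14 (log2, SE), and so did Wee1, the kinase that adds them, by 0.89 ± 0.16. Mnat1, a part of the CDK-activating kinase, rose by a narrow margin (0.45 ± 0.13, limma adjusted p = 0.0498). That call was lost without EGFP replicate 1 or 3 or EVI1 replicate 1 or 2, with each array centred on its median, and with trend and robust estimation.

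Of 27 genes of cyclin degradation 9 fell and 1 rose, with a median of -0.27, where 9.18% of all genes fell and 9.06% rose. Fbxo5 (Emi1), which holds back the anaphase-promoting complex until mitosis, fell by 1.52 ± 0.17 (log2, SE). The checkpoint genes Bub1b and Mad2l1 fell by 1.27 ± 0.15 and 1.08 ± 0.14, and Skp2, the F-box protein that targets p27, fell by 1.05 ± 0.15. The rise was that of Fbxo4, an F-box protein linked to cyclin D1 turnover (0.80 ± 0.21, limma adjusted p = 0.0285), and it was lost without EGFP replicate 3, EVI1 replicate 1 or EVI1 replicate 3.

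Among 20 E2F, pocket protein, MuvB and FOXM1 regulators 11 fell and 1 rose, where 9.18% of all genes fell and 9.06% rose. The median of the list was -0.53. Tfdp1, a DNA-binding partner of many E2F factors, read 10.94, 11.03 and 11.05 with EGFP alone, against 9.33, 9.25 and 9.39 with EVI1. That was a fall with limma adjusted p = 5.60e-05 (log2 -1.68 ± 0.10 SE). The repressor E2Fs E2f8 and E2f7 fell by 1.59 ± 0.12 and 1.03 ± 0.12, and Mybl2, which joins MuvB at late cell cycle promoters, fell by 1.02 ± 0.11. The related partner Tfdp2 rose (0.55 ± 0.13, adjusted p = 0.0198). The number that fell was 7 without EGFP replicate 3 and 7 without EVI1 replicate 3, and Tfdp2 was not called without EGFP replicate 1 or EVI1 replicate 1 or 2.

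Of 6 genes whose proteins cyclin F targets, 5 fell and none rose, where 9.18% of all genes fell and 9.06% rose. The median of the list was -1.16. Exo1, a DNA exonuclease, read 9.05, 8.87 and 9.11 with EGFP alone, against 7.08, 7.38 and 7.02 with EVI1 (log2 -1.85 ± 0.13 SE, limma adjusted p = 0.000131). The ribonucleotide reductase subunit Rrm2 fell by 1.36 ± 0.14, the replication licensing factor Cdc6 by 1.57 ± 0.23 and the spindle protein Nusap1 by 0.97 ± 0.15. Slbp, the histone messenger binding protein, differed by -0.63 ± 0.20 and passed with a replicate block (adjusted p = 0.0458) but not without it (0.0637). Transcripts of cyclin F and of its targets were lower in the same arrays; protein was not measured.

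**Figure D3:**
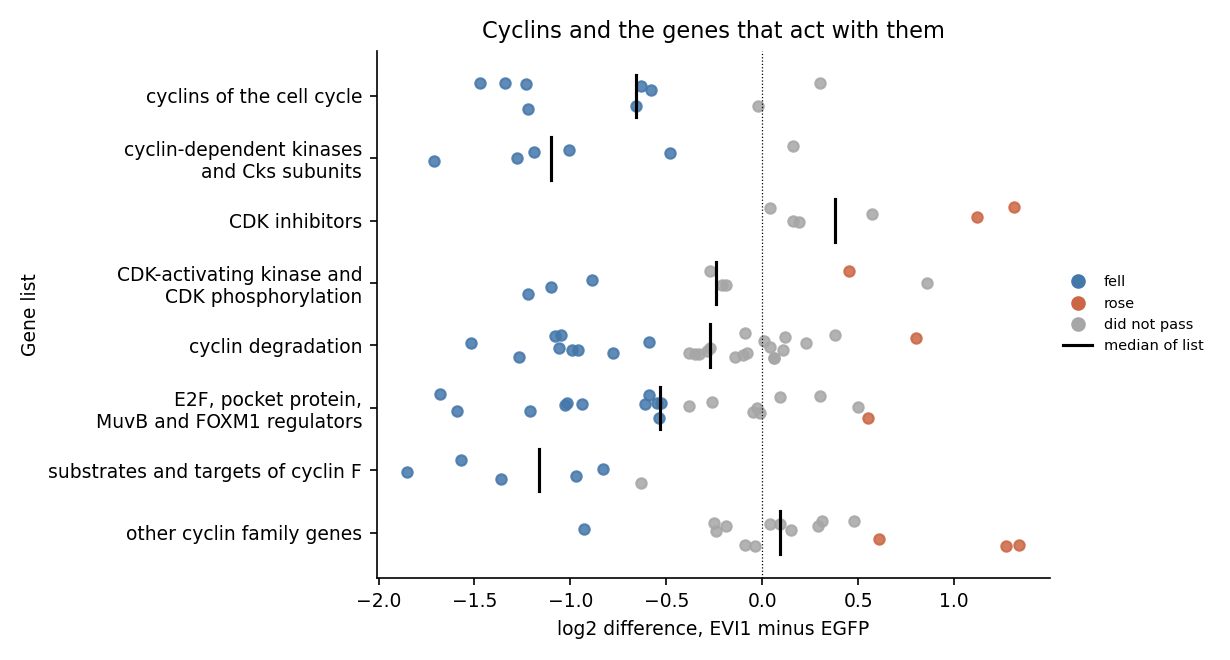
Log2 difference, EVI1 minus EGFP (horizontal axis), of each gene of the 9 cyclins and of the 7 lists of genes that act with them; blue points fell, orange points rose, grey points did not pass, and black bars are list medians. The CDK list (median -1.10) lies left of 0 except for Cdk2, and the CDK inhibitors (median 0.38) lie right of 0.

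By Pearson correlation over the 6 arrays, which share the group difference, the genes most like Ccna2 were Noa1 (r = 0.9999), Exo1 (0.9994) and C1qbp (0.9989). For Ccnd2, the D cyclin with the highest mean on its own probe set, they were Kit (0.9942), the receptor for stem cell factor, Krtap14 (0.9928) and Mrtfa (0.9889). Kit read 9.16, 9.25 and 9.28 with EGFP alone, against 8.49, 8.48 and 8.89 with EVI1, so that EVI1 replicate 3 was the highest EVI1 array for both Kit and Ccnd2. With 6 arrays in separate groups these correlations describe the ranking only.

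Some lists of cell type markers were lower in the EVI1 arrays and others were not, where 9.18% of all genes fell and 9.06% rose. Of 8 mast cell and basophil markers 7 fell, with an array mean of 9.96 to 10.51 in the EGFP and 8.45 to 8.69 in the EVI1 arrays, and of these markers Tpsb2 was dim in both groups. Of 9 progenitor markers 6 fell (Kit, Cd34, Flt3, Runx1, Myb and Mpo) and 2 rose (Ptprc and Spi1). Of 8 neutrophil markers 2 fell and 1 rose (array means 9.79 to 10.80 and 8.90 to 9.91), and of 8 monocyte and macrophage markers 4 fell and 2 rose (9.37 to 9.73 and 8.68 to 9.25). None of 5 eosinophil markers was called by limma (7.88 to 8.37 and 7.30 to 7.80). With a replicate block 4 neutrophil, 5 monocyte and macrophage, 4 eosinophil and 1 stromal and endothelial markers fell, where 11% of all genes fell. The other marker counts stayed as given with the block. Of 7 erythroid markers 2 rose and none fell (7.76 to 7.86 and 8.06 to 8.21), of 5 megakaryocyte and platelet markers 1 fell and 2 rose (9.12 to 9.43 and 9.24 to 9.39), of 8 lymphoid markers 1 rose (6.29 to 6.38 and 6.51 to 6.67), and of 8 stromal and endothelial markers 2 rose (7.11 to 7.21 and 7.56 to 7.85). Their part in the cyclin differences was not tested.

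The calls differed in how much they hung on single arrays. Ccne1, Ccne2 and Ccna2 passed in all 6 fits that leave out an array, Ccnf in 5, Ccnd2 and Ccnb2 in 3 each and Ccnd1 in 1. Differences over the 14 alternatives ran from -1.29 to -1.17 for Ccna2, from -1.34 to -1.17 for Ccne1 and from -0.84 to -0.46 for Ccnd1. Some alternatives could not move a cyclin's difference and changed only its p-value. These were the replicate block, trend and robust estimation, the filters on level and the averaging of a gene's probe sets.

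**Figure D4:**
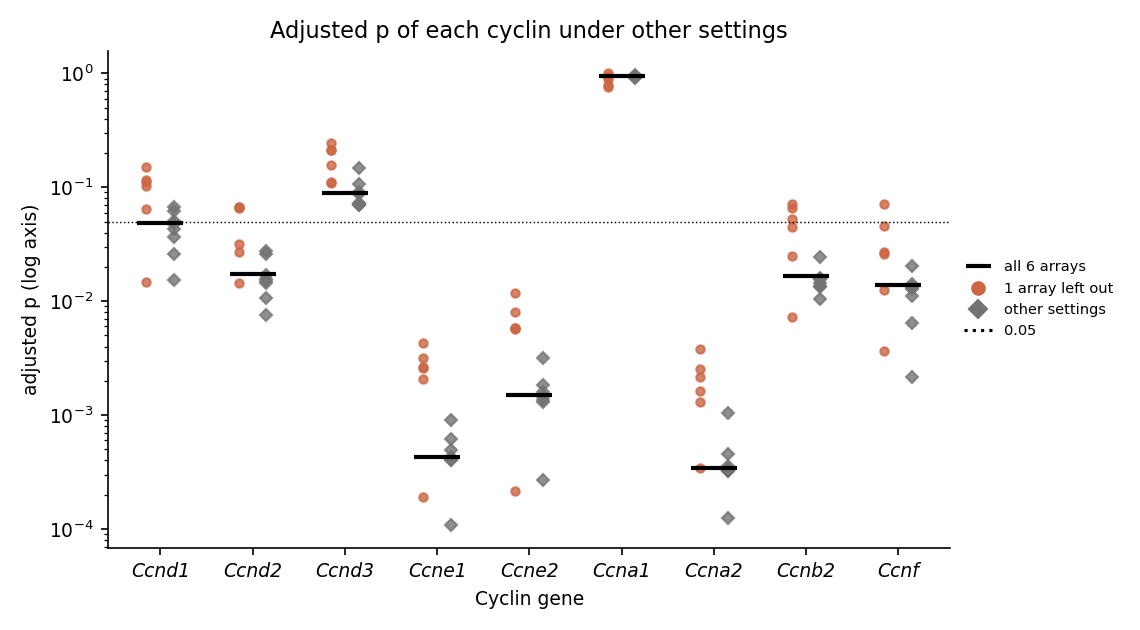
Adjusted p of each measured cyclin (log axis) with all 6 arrays (black bar), with 1 array left out (orange) and under the other alternatives (grey); the dotted line is 0.05. Ccne1, Ccne2 and Ccna2 stay under the line throughout, while Ccnd1 lies on it.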

How the data were processed

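The 6 single-colour Affymetrix Mouse Gene ST arrays were used as log2 intensities, 1 per probe set and array, as the authors deposited them. They were made with RMA, per the submitters' processing notes; its version is not given in the sources used here. RMA brings arrays close to a common distribution, so a change of total RNA per cell would not show. Of 34760 probe sets 21640 had exactly 1 gene symbol in the probe annotation, 1321 had several and 11799 were unnamed here. A gene was read from its probe set with the highest mean (19937 genes), with no filter on dim probe sets and no detection calls. Symbols of 19855 genes were found in the RefSeq table.

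A two-sided moderated test compared the groups (R 4.3.3; limma 3.58.1 without trend or weights), p-values were adjusted by Benjamini-Hochberg over all genes, and the fit was tested on simulated data. SD is over the 3 arrays of a group, and the number of arrays limits the precision. Same-numbered arrays deviated together (r = 0.491, 0.269 and 0.197), so a replicate block was run as an alternative. The named genes were the cyclins, the up to 4 genes of each list with the smallest p, and those most like Ccna2 and Ccnd2; Cdk2, Cdk4, Tfdp2, Fbxo4 and Slbp were described after their values were seen. The members and lists were chosen with earlier results of these data known.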

Additional observations from a re-analysis of the deposited data

How the results depend on the processing

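Leaving out 1 array at a time gave 2289 (without EVI1 replicate 3) to 4098 changed genes instead of 3638, 4 to 6 falling cyclins instead of 7, 32 to 44 called genes of the 7 lists instead of 42, a median of -0.84 to -0.57 for the D and E cyclins and of -0.77 to -0.55 for the A and B cyclins. The falling cyclins were 4 without EVI1 replicate 1 and 4 without EVI1 replicate 3. The difference of the dim Ccna1 ran from -0.09 to 0.08, turning positive without EVI1 replicate 2. A filter at the median level removes Ccna1 and takes the A and B median to -0.92. With a replicate block 4361 genes changed, 7 cyclins fell and none rose, and no cyclin call differed; in the 7 lists the block added Slbp, Cdc25b (0.0141), Anapc1 and Ccnl1, and it changed no other call there. Ccnd1 lost its call with each array centred (0.0664), with a further quantile normalisation (0.0617) and with trend and robust estimation (0.0502). Of 196 list counts under the 14 alternatives 175 lay within 1.5 times the value with all arrays. Counts that were 0 in both fits are among these 175. Signal over background was not measured, which limits what can be said of Ccna1.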

Other observations

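A list of 15 other cyclin family genes held 3 that rose, 1 that fell and 11 that did not pass by limma, with a median log2 difference of 0.09, where 9.06% of all genes rose and 9.18% fell. Ccnj read 8.31, 8.11 and 8.18 with EGFP alone, against 9.67, 9.34 and 9.63 with EVI1, a 2.54-fold rise (log2 1.34 ± 0.13 SE, limma adjusted p = 0.000365). Its relative Ccnjl fell by 0.93 ± 0.10 and was under the level for dim genes in the EVI1 arrays. Ccng2, a cyclin linked to cell cycle arrest, rose by 0.61 ± 0.12, and Ccnyl1 rose by 1.27 ± 0.30 (adjusted p = 0.0199, and up to 0.093 with an array left out). Ccnb3, the third B cyclin, lay in the dim range in both groups, as did Ccno.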
